A study of Mus musculus with 10 samples.

Results

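The 36 genes described here encode enzymes of cholesterol and fatty acid synthesis, the regulators that control them and 3 proteins that move sterols. They were chosen by name as members of these pathways, with earlier results of these data known. Each name was found once among the 57825 genes of the deposited table. The samples are CD8+ T cells that had been cultured together with 4T1, a mammary carcinoma line of the mouse, in 2 groups of 5, CD8+4T1 and CD8+4T1+NaAc, where NaAc is sodium acetate. The labels give spleen as the tissue, cytotoxic T lymphocytes as the cells and day 3 as the time for both groups. According to the methods, spleens came from female Balb/c mice of 7 to 8 weeks, and the T cells, isolated with a bead kit, were activated with IL-2 and anti-CD28 on anti-CD3 plates for 12 h, kept with or without 5 mM NaAc for 24 h and then placed with 4T1 for 48 h. RNA was taken from purified CD8+ T cells, and no step that removes 4T1 cells after the co-culture is described in the methods. No gene alteration is given for either group. The sources do not say whether the 5 samples of a group came from separate animals, so the p-values measure the spread between these samples, which may be technical.

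Cells build cholesterol from acetyl-CoA, first along the mevalonate pathway to farnesyl diphosphate and then through squalene and lanosterol. When sterols run low in the endoplasmic reticulum, SCAP carries the SREBP transcription factors to the Golgi for cleavage, and INSIG proteins hold SCAP back when sterols are plentiful. Acetyl-CoA is also the carbon source of fatty acids, which are made by acetyl-CoA carboxylase and fatty acid synthase and then lengthened by elongases and given double bonds by desaturases. Activated CD8+ T cells use both pathways to make membranes for growth and division.

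The values are FPKM, in which fragments are divided by the length of the gene and by the fragments of the sample, so levels can be compared between genes. The FPKM referred to between 16306447 and 17443395 fragments in CD8+4T1 samples and between 16503701 and 18853726 in CD8+4T1+NaAc samples. The genes of the table took 95.46% to 97.87% of the fragments in CD8+4T1 and 89.85% to 92.07% in CD8+4T1+NaAc, and the summed FPKM did not overlap either, with 310965 to 335151 against 282995 to 295928. Cd8a, which encodes a chain of the CD8 coreceptor, averaged 78.6 and 76.5 FPKM in the 2 groups. Cd3d, Cd3e, Cd3g, Cd2 and Lck of the 9 T cell markers were lower with NaAc (limma, adjusted p under 0.05), beside 19% of all genes tested. Cd2 passed in only 2 of the 10 fits with 1 sample left out. Over the other alternatives the limma adjusted p reached 0.563 for Cd2, 0.146 for Cd3e and 0.148 for Lck. The summed level of 17 epithelial genes known from 4T1 cells was 22.5 to 34.1 FPKM in CD8+4T1 and 81.5 to 191.2 FPKM in CD8+4T1+NaAc. Of these 17 genes, 8 averaged under 0.5 FPKM and none was at 0 in all samples, although Krt5 had at most 1 fragment. Among the 9 tested, 5 rose with NaAc (limma, adjusted p under 0.05), Krt8 and Lcn2 among them, beside 17.6% of all genes tested. Of the 8 not tested, Cdh1 (means of 0.0316 and 0.606 FPKM) and Elf3 (0.103 and 0.79 FPKM) did not overlap between the groups. Krt19, Krt5, Krt14, Cldn4, Esrp1 and Grhl2 did overlap. Cd4 averaged 0.541 and 1.6 FPKM. Summed myeloid markers, of which Cd68 made up the most, were 25.1 to 34.4 and 25.9 to 29.8 FPKM. Lyz2 among them rose from 0.536 to 1.12 FPKM (limma adjusted p = 0.0328) on 7 to 36 fragments per sample, while Cd68 and Cd14 were not called. Lyz2 passed in only 4 of the 10 fits with 1 sample left out, and its adjusted p reached 0.054 over the other alternatives. Summed B cell markers were 3.92 to 4.91 and 4.55 to 6.22 FPKM. In NaAc replicate 1, 20233 genes had any fragment, the lowest number, with 22291 to 25088 elsewhere. In bulk RNA, fewer cells of a type and less RNA per cell cannot be told apart.

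Fold changes compare CD8+4T1+NaAc with CD8+4T1 on the log2(FPKM + 0.1) scale, which understates the change of low genes, and a gene is said to rise or fall at a Benjamini-Hochberg adjusted p under 0.05 in limma, adjusted over the 15710 genes that averaged 0.5 FPKM or more. Of the 36 genes, 35 passed this filter, 14 differed between the groups and 21 missed the threshold. The 14 are 40.0% of the tested members, beside 36.5% called among all genes tested, so the share was near the background. In 9 genes the level rose, beside 17.6% of all genes tested, and in 5 it fell, beside 19% of all genes tested. The groups did not overlap for 8 members, Idi1, Sc5d, Tm7sf2, Acacb, Elovl1, Elovl6, Scd1 and Fads2, beside 26.4% of all genes tested. The median log2 fold change was 0.05 for the members and -0.02 for all genes tested, with a range of -0.48 to 2.38 among the members and 1 member, Scd1, past an absolute value of 1. By role, 5 of 10 fatty acid genes rose and none fell, 4 of 11 genes from squalene to cholesterol rose and 1 fell, 1 of the 6 mevalonate genes tested fell, 2 of 5 genes of SREBP control fell and 1 of 3 sterol transport genes fell.

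Levels, as means over all 10 samples, ranged from 108.1 FPKM for Scd2 to a listed 0.215 FPKM for Fdps, whose value is uncertain as a level of the gene. Scd2 was followed by Srebf2 (37.8), Fasn (24.8), Elovl5 (22.1), Srebf1 (18.5), Elovl1 (18.3) and Scap (17.4). From Fasn to Scap the sample values of each gene overlapped those of the next, and the lowest member tested was Abca1 (1.09). Of the 9 genes that rose, 7 averaged under 5 FPKM and 2, Sqle and Elovl1, were above, whereas all 5 genes that fell averaged above 5 FPKM. The same lean was present across all genes, since 48.1% of all calls were higher with NaAc but 33.7% of the calls among genes averaging at least 5 FPKM.

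**Figure D1:**
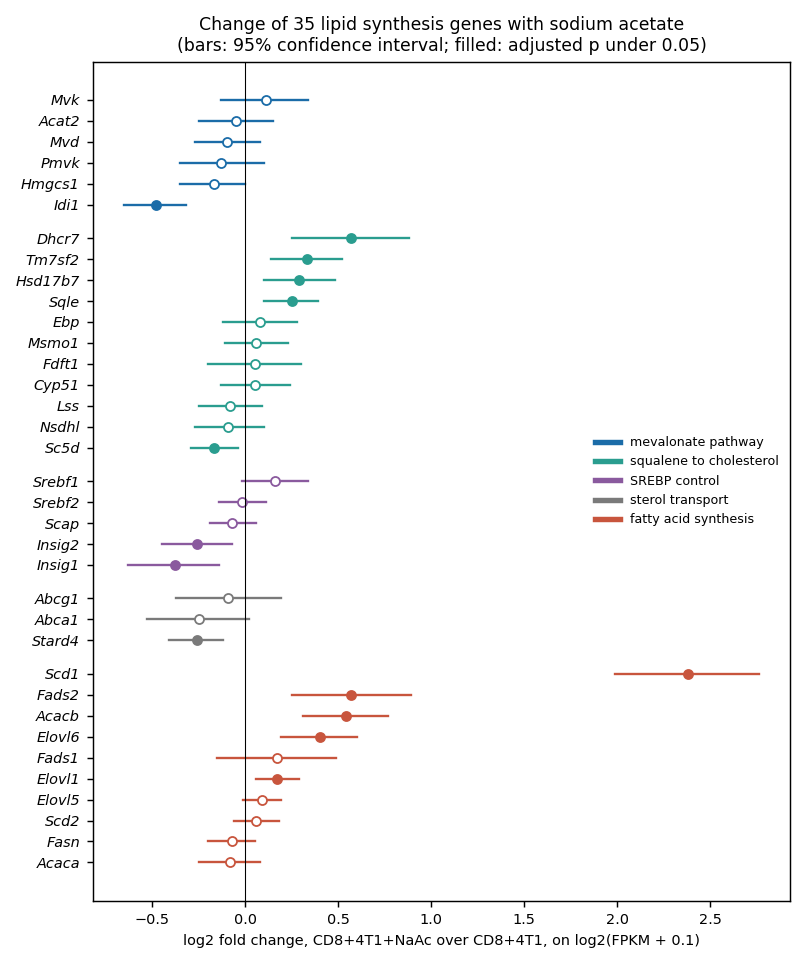
Log2 fold change (CD8+4T1+NaAc over CD8+4T1, on log2(FPKM + 0.1)) of the 35 members tested, grouped by role, with 95% confidence intervals from limma as bars and filled points for an adjusted p under 0.05. Scd1 stands at 2.38, and every other member lies between -0.48 and 0.57.

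The split between rises and falls depended on how the samples were scaled. When all samples were rescaled to the same total FPKM, 15 members rose and 1 fell, and when they were scaled to the CD8 T cell markers, 18 rose and 1 fell. Thus 16 and 19 of the 35 members tested were called, beside 40.0% and 41.1% of all genes tested. The marker scaling rests on 9 genes, of which 5 were themselves lower with NaAc as deposited, so it moves other genes upward. Across all genes tested, the median log2 fold change moved from -0.02 to 0.15 and 0.20 under these scalings, and that of the members from 0.05 to 0.23 and 0.27. Among all genes called, 48.1% were higher as deposited, 77.9% at the same total, 83.8% at equal T cell markers and 65.0% in voom on the recovered fragments, where 12 members rose and 2 fell. Under both rescalings 10 of the 14 members kept their call, the 9 that rose and Idi1 among those that fell, while Insig1, Insig2, Sc5d and Stard4 lost theirs.

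**Figure D2:**
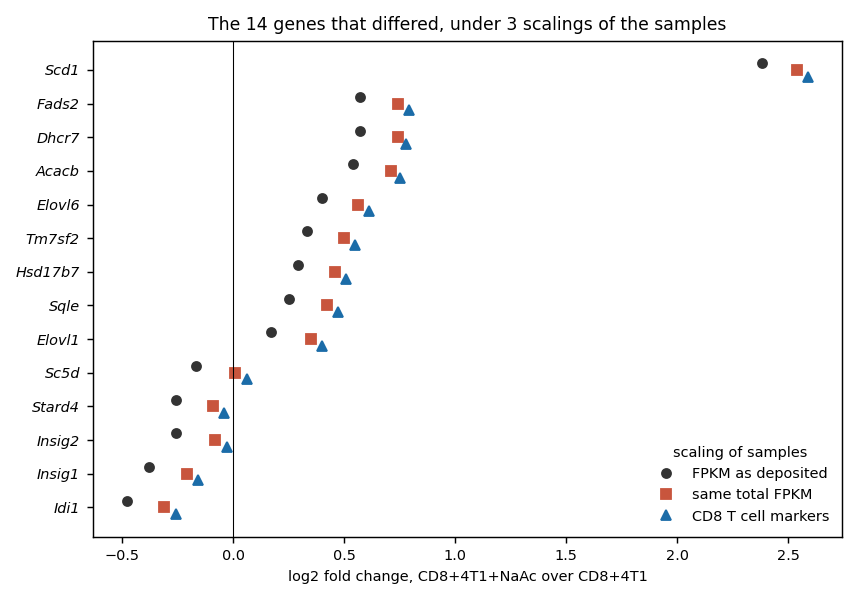
Log2 fold change of the 14 members that differed, with the FPKM as deposited (circles), rescaled to the same total (squares) and scaled to the CD8 T cell markers (triangles). Both rescalings move every gene to the right, Idi1 stays below 0 at -0.31 and -0.26, and Sc5d passes to 0.01 and 0.06.

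Stretches upstream of 5 sterol genes are shown because SREBP binding elements and the CCAAT boxes that often accompany them lie in such promoters. Sequences are from RefSeq on GRCm38.p6, read in the direction of the gene and ending at the base before the listed start of transcription, and 28 of the 36 members had an entry. Capitals mark matches on either strand to the sterol regulatory element TCACNCCAC and to the CCAAT box, which reads ATTGG on the opposite strand. Hmgcs1 is shown for its sterol regulatory element match, and the other genes, like the CCAAT box itself, were chosen after their values were seen. The positions are, for Hmgcs1, chr13:119690201-119690350 on the plus strand, for Idi1 chr13:8885526-8885605 on the plus strand, for Insig1 chr5:28071182-28071411 on the plus strand, for Hsd17b7 chr1:169969206-169969385 on the minus strand and for Tm7sf2 chr19:6067851-6067930 on the minus strand.
Hmgcs1: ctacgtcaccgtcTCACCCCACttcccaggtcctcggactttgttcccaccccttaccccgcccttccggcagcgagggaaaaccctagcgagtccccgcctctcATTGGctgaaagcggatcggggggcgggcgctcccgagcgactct
Idi1: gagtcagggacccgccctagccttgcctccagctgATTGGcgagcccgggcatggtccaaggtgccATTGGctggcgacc
Insig1: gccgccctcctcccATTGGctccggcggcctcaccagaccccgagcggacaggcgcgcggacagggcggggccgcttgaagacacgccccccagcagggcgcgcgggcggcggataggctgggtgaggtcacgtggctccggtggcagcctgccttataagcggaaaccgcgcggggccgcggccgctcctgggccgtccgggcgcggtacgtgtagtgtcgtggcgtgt
Hsd17b7: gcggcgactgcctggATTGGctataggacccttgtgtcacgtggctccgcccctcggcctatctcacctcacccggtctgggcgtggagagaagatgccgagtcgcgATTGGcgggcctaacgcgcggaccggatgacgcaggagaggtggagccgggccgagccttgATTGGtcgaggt
Tm7sf2: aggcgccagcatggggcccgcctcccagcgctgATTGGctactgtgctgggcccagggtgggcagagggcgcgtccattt

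Within 250 bases upstream of a start, the letters TCACNCCAC were found in 1 of the 28 members, Hmgcs1, beside 1.22% of the 27025 genes in the RefSeq table. CCAAT was found in 22 of 28 members (78.6%), beside 37.5% of the genes in the table and 40.2% of those that were also tested here. The CCAAT letters were present for 5 of 7 members that rose, 4 of 4 that fell and 13 of 17 others, so members with the box were found among genes of either direction. A direct repeat of AGGTCA with 4 bases between the copies, the element of the LXR sterol receptors, was found in 0 of 28 members and 0.0148% of the genes in the table. These matches describe letters in a window and not binding, and genes with several listed starts were counted once if any window held the letters. Only exact letters were searched, so sites that differ from them were not counted. A gene without a match may therefore still hold such an element.

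In the mevalonate pathway, Idi1 was the gene that fell. Idi1 (ENSMUSG00000058258, listed at chr13:8935537-8942487) encodes isopentenyl-diphosphate isomerase, which balances the 5-carbon units of sterol synthesis. The CD8+4T1 samples had 15.9, 17.2, 15.8, 13.2 and 15.2 FPKM in the order of replicates 1 to 5, and the CD8+4T1+NaAc samples 11.1, 10, 12, 10.3 and 11.5 FPKM. Every NaAc sample was thus below the lowest sample without NaAc. The means were 15.5 ± 1.44 and 11 ± 0.829 FPKM (SD, n = 5 each), a ratio of 0.712, and the log2 fold change was -0.48 (standard error, SE, 0.08, 95% interval -0.65 to -0.32, limma adjusted p = 0.000651). With any sample left out, Idi1 kept its call at -0.54 to -0.44, and its adjusted p was 0.000395 to 0.0386 over the other alternatives. Its 4 pseudogenes held at most 2.7% of the fragments of the gene and its copies together.

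The other mevalonate genes did not pass the threshold, which does not show that their levels were the same. Hmgcs1, the synthase that makes HMG-CoA, had 13.0, 11.8, 10.5, 11.2 and 12.4 FPKM in CD8+4T1 and 11.7, 9.03, 10.7, 10.2 and 10.6 FPKM in CD8+4T1+NaAc, so the groups overlapped. The difference on the log2 scale was -0.17 (95% interval -0.35 to 0.00, limma adjusted p = 0.116), and without NaAc replicate 1 it was -0.21 with an adjusted p of 0.0414. Acat2, a thiolase that joins acetyl-CoA units, had a log2 fold change of -0.05 (interval -0.25 to 0.15), and its near copy Acat3 held up to 8.31% of the fragments of the pair. The intervals were -0.13 to 0.34 for Mvk (mevalonate kinase), -0.35 to 0.10 for Pmvk (phosphomevalonate kinase) and -0.27 to 0.08 for Mvd (mevalonate diphosphate decarboxylase), and Mvk passed as higher at equal T cell markers (0.33, adjusted p = 0.0423). Fdps, farnesyl diphosphate synthase, was under the filter with 0.199 to 0.331 FPKM in CD8+4T1 and 0.112 to 0.264 in CD8+4T1+NaAc, which is 8 to 23 fragments per sample, and its difference gave p = 0.103 in a two-sided exact permutation test over samples. These are few fragments for an enzyme that the whole pathway passes through, and whether fragments of Fdps were counted elsewhere was not tested beyond its listed copy Gm48101, which held 0.0% of them, so the values and the p may not reflect the level of the gene. The summed level of the 7 mevalonate genes was 66.9 to 68.4 FPKM without NaAc and 54.4 to 63.8 FPKM with it, and Idi1 had the largest difference between group means of the 7. As a share of the summed FPKM of all genes, which was lower too, the 7 genes took 0.0201% to 0.0220% and 0.0192% to 0.0220%, so that these shares overlapped.

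From squalene onward, Sqle, Hsd17b7, Dhcr7 and Tm7sf2 rose and Sc5d fell. Dhcr7, the reductase of the last step to cholesterol, had the largest change of the 5, with 2.02, 1.44, 1.24, 1.72 and 1.54 FPKM in CD8+4T1 and 2.60, 2.37, 2.59, 2.55 and 1.86 FPKM in CD8+4T1+NaAc. The groups overlapped only through NaAc replicate 5 and CD8+4T1 replicate 1. The mean went from 1.59 ± 0.293 to 2.40 ± 0.313 FPKM (SD, n = 5), which is a log2 fold change of 0.57 (SE 0.14, limma adjusted p = 0.00977) on 118 to 260 fragments per sample. Tm7sf2, a sterol C14 reductase, had 2.45, 2.45, 2.69, 2.44 and 2.16 FPKM without NaAc and 3.25, 3.28, 2.92, 3.25 and 2.75 FPKM with it. Every NaAc sample of Tm7sf2 was above every other sample, and the log2 fold change was 0.33 (SE 0.09, limma adjusted p = 0.0114), although the gene overlaps Vps51 on the same strand, so that shared reads could count for either gene.

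Sqle, squalene epoxidase, a rate-limiting oxygenase of the pathway, had 7.44, 7.06, 6.73, 6.2 and 6.77 FPKM in CD8+4T1 and 8.48, 8.64, 8.47, 7.67 and 7.38 FPKM in CD8+4T1+NaAc. The only overlap was NaAc replicate 5, just below CD8+4T1 replicate 1. The log2 fold change was 0.25 (SE 0.07, limma adjusted p = 0.0146), and Sqle, Dhcr7 and Tm7sf2 kept their calls with any sample left out. Hsd17b7, a 3-ketosteroid reductase of sterol demethylation, averaged 4.05 ± 0.422 and 4.96 ± 0.421 FPKM (SD, n = 5), with overlapping groups and a log2 fold change of 0.29 (limma adjusted p = 0.0225). It lost its call without CD8+4T1 replicate 2 or 3 or NaAc replicate 2 or 4, at adjusted p-values of 0.0502 to 0.0573.

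Sc5d, the desaturase that acts before Dhcr7, had 7.53, 7.07, 6.70, 7.13 and 6.71 FPKM in CD8+4T1 and 6.25, 5.83, 6.29, 6.65 and 6.25 FPKM in CD8+4T1+NaAc. The groups did not overlap, with 6.65 FPKM in the highest NaAc sample beside 6.70 in the lowest sample without NaAc. The log2 fold change was -0.17 (SE 0.06, limma adjusted p = 0.0371), a small fall that turned to 0.01 at the same total FPKM and to 0.06 at equal T cell markers. It also lost its call without CD8+4T1 replicate 1, 2 or 4 or NaAc replicate 2, 3 or 5, with adjusted p-values of 0.0608 to 0.0815. Sc5d and Dhcr7, which follow each other in the pathway, therefore had calls of opposite direction in the FPKM as deposited. Each rescaling multiplies all genes of a sample by the same factor, so any 2 genes move by about as much. Dhcr7 was at 0.57 as deposited and at 0.74 and 0.78 after the rescalings. The distance between Sc5d and Dhcr7 is thus kept by the method itself, while Sc5d was not called after either rescaling.

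The other 6 enzymes of this stretch missed the threshold in the deposited scaling. They were Fdft1 (squalene synthase), Lss (lanosterol synthase), Cyp51 (lanosterol demethylase), Msmo1 and Nsdhl (removal of the C4 methyl groups) and Ebp (a sterol isomerase). Their log2 fold changes lay between -0.09 (Nsdhl, interval -0.27 to 0.10) and 0.08 (Ebp, interval -0.12 to 0.28). Cyp51, Msmo1 and Ebp passed as higher at the same total FPKM (0.23, 0.24 and 0.25), and Fdft1 did so only under the scaling to T cell markers (0.27). Fdft1 overlaps Ctsb and Cyp51 overlaps Akap9 on the opposite strand, and the kit used here does not mark strand. The sum of the 18 sterol enzymes was 127.8 to 130.1 FPKM in CD8+4T1 and 114.7 to 129.7 FPKM in CD8+4T1+NaAc, with the lowest value in NaAc replicate 1. As a share of the summed FPKM of all genes, they took 0.0384% to 0.0418% and 0.0405% to 0.0447%, so the shares overlapped and leaned the other way. The 11 enzymes from squalene onward summed to 60.9 to 62.6 and 60.3 to 68.1 FPKM. Their shares were 0.0183% to 0.0198% and 0.0213% to 0.0238%, without overlap, but the summed FPKM of all genes was lower with NaAc. The shares of the 43 further lipid genes described below did not overlap either, at 0.188% to 0.199% and 0.211% to 0.219%.

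**Figure D3:**
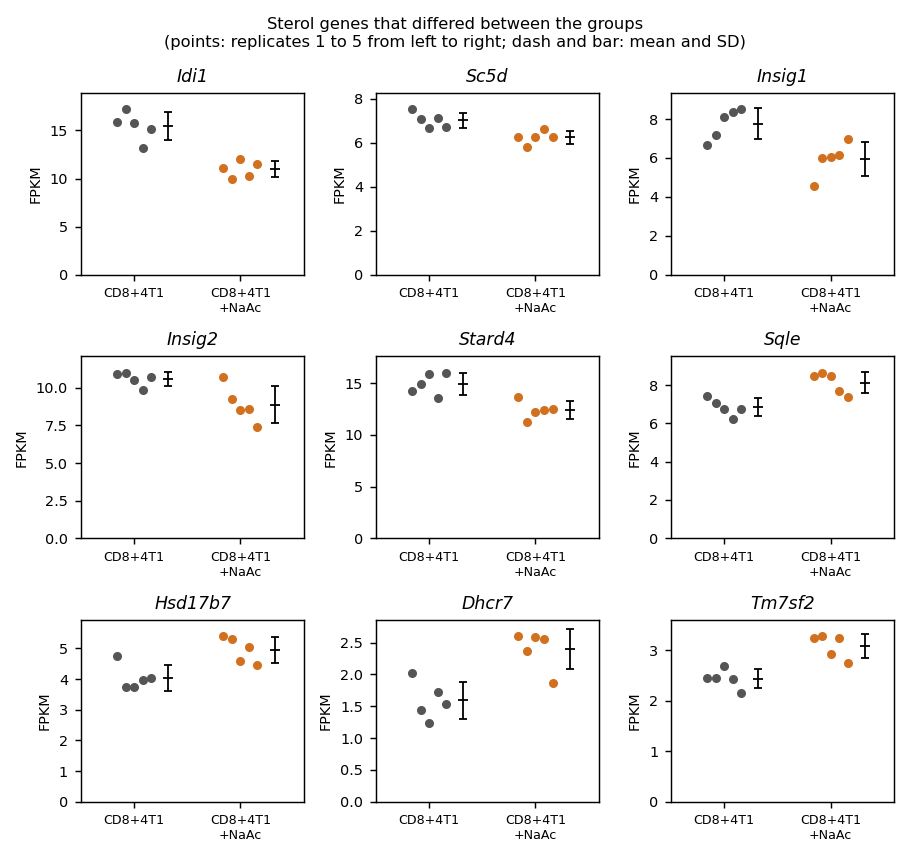
FPKM of the 9 sterol genes that differed, by sample, with replicates 1 to 5 of each group from left to right and the mean and SD beside them. Idi1, Sc5d and Tm7sf2 show no overlap between the groups, and the falls of Sc5d, Insig1, Insig2 and Stard4 are lost when the samples are rescaled.

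Among the regulators, both Insig genes were lower with NaAc as deposited and the SREBP genes were not called. Insig1, which retains SCAP in the endoplasmic reticulum and is itself an SREBP target, had 6.66, 7.19, 8.11, 8.38 and 8.50 FPKM in CD8+4T1 and 4.58, 6.0, 6.07, 6.17 and 6.95 FPKM in CD8+4T1+NaAc. The groups overlapped through NaAc replicate 5, and NaAc replicate 1 was the lowest sample. The mean went from 7.77 ± 0.806 to 5.95 ± 0.860 FPKM (SD, n = 5), which is a log2 fold change of -0.38 (SE 0.11, limma adjusted p = 0.0193) that held with any sample left out but not at the same total FPKM (-0.21, adjusted p = 0.124) or at equal T cell markers (-0.16, adjusted p = 0.182).

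Insig2, its paralogue, had 10.9, 11, 10.5, 9.84 and 10.7 FPKM without NaAc and 10.7, 9.25, 8.51, 8.56 and 7.42 FPKM with it. NaAc replicate 1 lay within the range of the CD8+4T1 samples and the other NaAc samples lay below it. Insig2 changed by -0.26 on the log2 scale (limma adjusted p = 0.0363), and at the same total FPKM it was -0.08 (adjusted p = 0.526). The call was also lost without CD8+4T1 replicate 1, 2, 3 or 5 or NaAc replicate 3, 4 or 5, at adjusted p-values of 0.0657 to 0.0770.

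Srebf1, which encodes the SREBP that drives mainly fatty acid genes, had 19.0, 16.2, 17.2, 18.0 and 17.0 FPKM in CD8+4T1 and 16.1, 19.1, 19.9, 21.4 and 21.6 FPKM in CD8+4T1+NaAc. NaAc replicate 1 was the lowest of all 10 samples, while the other NaAc samples were above every sample without NaAc. The log2 fold change was 0.16 (95% interval -0.02 to 0.34, limma adjusted p = 0.159), and without NaAc replicate 1 it was 0.23 with an adjusted p of 0.0101. Srebf1 also passed at the same total FPKM (0.33, adjusted p = 0.00953) and overlaps Rai1 on the opposite strand. Srebf2, the SREBP of the sterol genes and after Scd2 the most abundant member, averaged 38.0 ± 2.09 and 37.6 ± 2.24 FPKM (SD, n = 5), with an interval of -0.14 to 0.11 around -0.02. Its change turned to 0.21 at equal T cell markers (adjusted p = 0.0390). Scap averaged 17.8 and 17.0 FPKM, with an interval of -0.19 to 0.06.

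Of the sterol transport genes, Stard4, a cytosolic sterol carrier, had 14.2, 14.9, 15.9, 13.6 and 16 FPKM in CD8+4T1 and 13.7, 11.2, 12.2, 12.4 and 12.5 FPKM in CD8+4T1+NaAc. NaAc replicate 1 was the only NaAc sample to reach the CD8+4T1 range. Its log2 fold change was -0.26 (SE 0.07, limma adjusted p = 0.00903) and kept its call with any sample left out, but it was -0.09 at the same total FPKM (adjusted p = 0.371) and -0.04 at equal T cell markers (adjusted p = 0.718). The LXR targets Abca1 and Abcg1, which export cholesterol from cells, were not called, with log2 fold changes of -0.25 (interval -0.53 to 0.02) and -0.09 (interval -0.37 to 0.19). Abca1 was among the lowest members, at 1.19 ± 0.109 and 0.987 ± 0.0805 FPKM (SD, n = 5).

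In fatty acid synthesis, 5 genes rose, Scd1, Fads2, Acacb, Elovl6 and Elovl1, and the main carboxylase and synthase genes were not called. Scd1 (ENSMUSG00000037071, listed at chr19:44382894-44396318), a stearoyl-CoA desaturase that puts the first double bond into saturated fatty acids, had the largest change of the 36 genes. The CD8+4T1 samples had 0.795, 0.504, 0.702, 0.992 and 0.941 FPKM and the CD8+4T1+NaAc samples 4.33, 5.05, 4.04, 5.27 and 3.59 FPKM. The lowest NaAc sample was more than 3 times the highest sample without NaAc, so the groups were far apart. The means were 0.787 ± 0.196 and 4.46 ± 0.698 FPKM (SD, n = 5), a ratio of 5.66, and the log2 fold change was 2.38 (SE 0.18, 95% interval 1.99 to 2.76, limma adjusted p = 1.54e-05). The change was 2.25 to 2.46 with any sample left out, 2.54 at the same total FPKM and 2.59 at equal T cell markers, on 43 to 466 fragments per sample.

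Of the 9 tested markers of 4T1 cells, Krt7, Krt8, Krt18, Cldn3 and Lcn2 rose as well, while Epcam, Cldn7, Dsp and Perp were not called. Krt8, a keratin of simple epithelia, had 1.77, 2.78, 2.16, 4.74 and 5.66 FPKM in CD8+4T1 and 26.4, 53.5, 30.7, 40.3 and 20 FPKM in CD8+4T1+NaAc, which is a log2 fold change of 3.33 (limma adjusted p = 8.1e-05). In both Krt8 and Scd1, NaAc replicates 2 and 4 were the highest and replicate 5 the lowest of the NaAc samples, and replicates 4 and 5 were the highest of the CD8+4T1 samples. Krt7, Krt18 and Lcn2 had the same order of NaAc samples as Krt8, and Cldn3 did not, with replicate 3 its lowest NaAc sample and replicate 1 its highest CD8+4T1 sample. The other 8 members that rose did not share that order throughout. Their highest NaAc sample was replicate 2 for Sqle, Tm7sf2, Acacb, Elovl6 and Fads2, replicate 1 for Dhcr7 and Hsd17b7 and replicate 5 for Elovl1, and their lowest was replicate 5 except for Acacb (replicate 4) and Elovl1 (replicate 3). The part of the 4T1 markers in the rise of Scd1 and of the other members was not tested.

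Scd2, the isoform next to Scd1 on chromosome 19, was the most abundant of the 36 genes in both groups. It had 104.5, 105.0, 105.0, 104.6 and 110.0 FPKM in CD8+4T1 and 121.0, 100.3, 106.5, 113.3 and 110.7 FPKM in CD8+4T1+NaAc. The groups overlapped, and the log2 fold change was 0.06 (95% interval -0.06 to 0.18, limma adjusted p = 0.432), although it passed as higher at the same total FPKM (0.24, adjusted p = 0.0114), at equal T cell markers (0.28, adjusted p = 0.00596) and in voom (0.15, adjusted p = 0.0444). The NaAc samples were more spread, with an SD of 7.71 FPKM against 2.34 FPKM.

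Acetyl-CoA carboxylase, which commits acetyl-CoA to fatty acids, has a cytosolic form, Acaca, and a form at the outer mitochondrial membrane, Acacb, whose product restrains fatty acid oxidation. Acacb had 1.54, 1.17, 1.39, 1.48 and 1.34 FPKM in CD8+4T1 and 2.09, 2.20, 1.98, 1.90 and 2.08 FPKM in CD8+4T1+NaAc, with no overlap. Acacb rose by 0.54 on the log2 scale (SE 0.10, 95% interval 0.31 to 0.77, limma adjusted p = 0.00208), and the call held with any sample left out. Acaca had 3.20, 3.12, 3.09, 3.18 and 3.26 FPKM without NaAc and 2.63, 3.33, 3.03, 3.14 and 2.84 FPKM with it, with a log2 fold change of -0.08 (interval -0.25 to 0.08, adjusted p = 0.422). The Acaca values are uncertain because its pseudogene Gm5182 held a median of 13.94% of the fragments of both. Fasn, the synthase that builds palmitate, averaged 25.4 ± 1.02 and 24.2 ± 1.76 FPKM (SD, n = 5) and was not called (-0.07, interval -0.20 to 0.05).

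Fads2, the delta-6 desaturase of polyunsaturated fatty acids, had 2.03, 1.44, 2.12, 2.17 and 2.13 FPKM in CD8+4T1 and 2.96, 3.94, 2.70, 2.78 and 2.59 FPKM in CD8+4T1+NaAc. All NaAc samples were above all others, with NaAc replicate 2 the highest. The log2 fold change was 0.57 (SE 0.14, limma adjusted p = 0.00986) and kept its call with any sample left out. Fads1, the delta-5 desaturase, had 5.06, 5.72, 5.39, 5.08 and 5.20 FPKM without NaAc and 4.10, 8.04, 6.6, 6.12 and 5.61 FPKM with it. NaAc replicate 1 was the lowest and NaAc replicate 2 the highest of all 10 samples, and the log2 fold change was 0.17 (interval -0.15 to 0.49, adjusted p = 0.400). Without NaAc replicate 1 it was 0.30, with an adjusted p of 0.0278.

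Of the elongases, Elovl6, which extends palmitate to stearate, had 1.59, 1.48, 1.42, 1.47 and 1.34 FPKM in CD8+4T1 and 1.98, 2.14, 1.98, 1.88 and 1.80 FPKM in CD8+4T1+NaAc. The groups did not overlap, and the log2 fold change was 0.40 (SE 0.09, limma adjusted p = 0.00696), with the call kept when any sample was left out. Elovl1, which makes very long saturated chains, had 16.9, 17.2, 18.4, 15.4 and 18.1 FPKM without NaAc and 19.0, 19.5, 18.9, 19.4 and 20.1 FPKM with it. The groups did not overlap either, but the difference was smaller, at 0.17 (SE 0.05, limma adjusted p = 0.0258). The call was lost without CD8+4T1 replicate 1 or 2 or NaAc replicate 4 or 5, at adjusted p-values of 0.0501 to 0.0567, and Elovl1 overlaps Cdc20, a gene of 73.2 FPKM on the opposite strand. Elovl5, which extends polyunsaturated chains, averaged 21.3 and 22.8 FPKM and was not called (0.09, interval -0.01 to 0.19) as deposited, but it passed at the same total FPKM (0.27, adjusted p = 0.00198). The summed level of the 10 fatty acid genes was 178.6 to 189.6 FPKM in CD8+4T1 and 191.1 to 205.6 FPKM in CD8+4T1+NaAc. As a share of the summed FPKM of all genes, which was lower with NaAc, they took 0.0533% to 0.0594% and 0.0656% to 0.0727%. Scd2 held more of the summed level than the other 9 genes together in every sample.

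**Figure D4:**
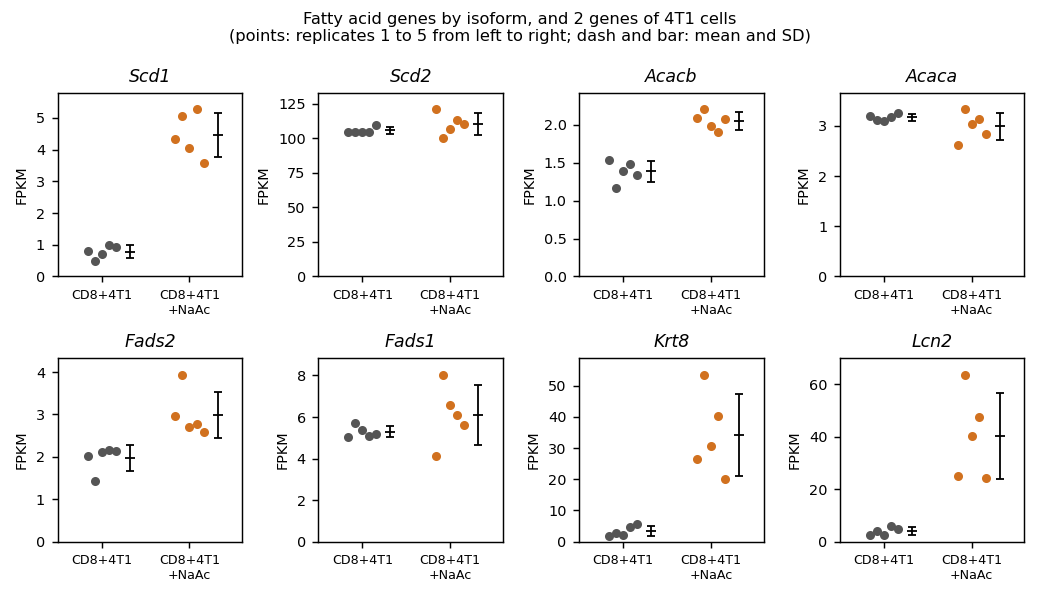
FPKM by sample of 3 pairs of related fatty acid genes and of the 4T1 genes Krt8 and Lcn2, with replicates 1 to 5 of each group from left to right and the mean and SD beside them. Scd1, Acacb and Fads2 lie higher with NaAc without overlap, while Scd2, Acaca and Fads1 overlap (Scd2 is called higher after rescaling), and Krt8 and Lcn2 are also higher with NaAc.

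The share of a gene in a pair of related genes does not depend on how the samples are scaled. These shares, for 5 pairs chosen after the values were seen, are given as a description with no test. Scd1 made up 0.737% ± 0.178 (SD, n = 5) of the FPKM of Scd1 and Scd2 in CD8+4T1 and 3.90% ± 0.695 in CD8+4T1+NaAc, so Scd2 supplied nearly all desaturase transcripts of the pair in both groups. Acacb made up 30.3% ± 2.13 and 40.7% ± 2.63 of the carboxylase pair, and neither of these shares overlapped between groups. The share of Fads2 was 27.2% ± 4.00 and 33.4% ± 5.01, that of Srebf1 31.5% ± 0.370 and 34.2% ± 3.10, and that of Insig1 42.3% ± 3.38 and 40.2% ± 6.64. The groups overlapped in the shares of Fads2, Srebf1 and Insig1.

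**Figure D5:**
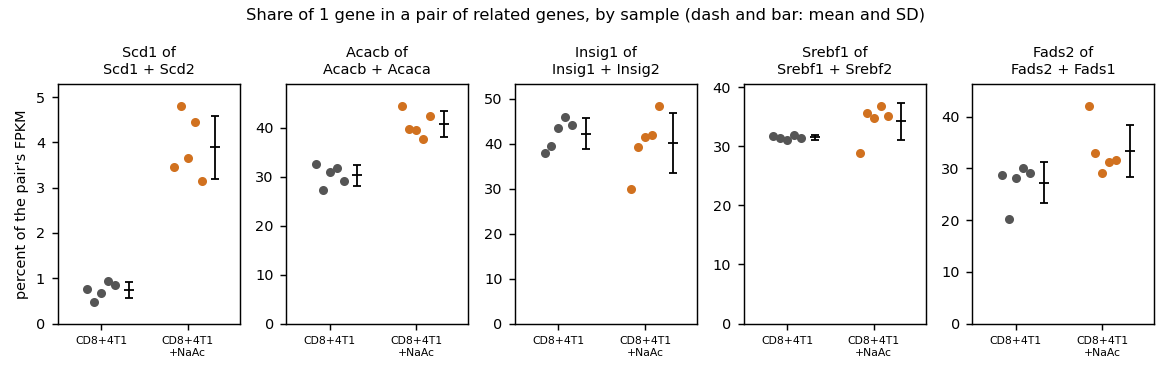
Percent of the FPKM of a pair of related genes that belongs to the named gene, by sample, for 5 pairs, with mean and SD. The Scd1 share lies at 0.737% and 3.90% on average and the Acacb share at 30.3% and 40.7%, each without overlap, and the Insig1, Srebf1 and Fads2 shares overlap between the groups.

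Beyond the 36 genes, a list of 43 further genes of lipid synthesis, SREBP processing, oxysterol binding and lipid storage was read in the same fit. Of the 41 tested, 7 rose and 5 fell, which is 29.3% beside 36.5% among all genes tested, and the median log2 fold change was 0.09. The largest rises were those of Me1, malic enzyme, a source of NADPH for fatty acid synthesis, at 2.06 (SE 0.24, limma adjusted p = 0.000118), Fads3, a relative of the desaturases, at 1.79 (adjusted p = 0.00032) and Dgat2, which makes triglycerides, at 0.98 (adjusted p = 0.00104). Me1 had 0.280, 0.268, 0.351, 0.410 and 0.268 FPKM without NaAc and 1.32, 2.70, 1.61, 1.64 and 1.14 FPKM with it, so the groups did not overlap. In the NaAc samples Me1 and Fads3 had the same order of replicates as the 4T1 marker Krt8, with replicate 2 the highest and replicate 5 the lowest, which were also the highest and lowest in Dgat2. The part of the 4T1 markers in the rises of these further genes was not tested. The largest falls were those of Ubxn4, an endoplasmic reticulum protein of the degradation pathway, from 27.6 to 19.7 FPKM (-0.48, limma adjusted p = 0.000127), Pcyt1a, the regulatory enzyme of phosphatidylcholine synthesis, from 37.3 to 28.1 FPKM (-0.42, adjusted p = 0.0034) and Lpin1, a phosphatidate phosphatase, from 9.11 to 7.18 FPKM (-0.34, adjusted p = 0.00576). The falls of Pcyt1a and Lpin1 were lost at the same total FPKM (adjusted p = 0.0591 and 0.140).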

How the data were processed

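RNA from purified CD8+ T cells was sequenced in 10 samples, 5 per group, and groups were taken from the sample labels. The authors deposited FPKM with 1 column per sample and, as an other column, the gene length; replicates were not pooled. The submitters' processing notes name fastp, HISAT2 2.0.5, StringTie 1.3.3b and featureCounts 1.5.0-p3. The genome build and the strand setting of the counting are not given in the sources used here, and gene positions are those of the deposited table, which are not on the build of the RefSeq promoters. FPKM times gene length gave whole fragments (within 0.1) for 100.0% of values, from which fragments per gene were read.

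FPKM are not counts, so log2(FPKM + 0.1) was compared with limma 3.58.1 (trend and robust moderation) in R 4.3.3 for genes averaging 0.5 FPKM or more, with Benjamini-Hochberg adjustment over all genes tested and a threshold of 0.05. Intervals are 95% intervals from limma. The exact permutation test used all 252 splits of 10 samples, with 0.00794 as its smallest two-sided p. This fit was first tested on simulated data. All 36 members are named, and of the further lipid genes the called genes that rose most (3) and fell most (3). The members and lists were chosen with earlier results of these data known. Alternatives were other pseudocounts, filters and scalings, voom on the fragments, the replicate number as a block, a stricter threshold and each sample left out. The shares of paralogue pairs were added after the data were seen. Figures were drawn with matplotlib 3.10.9.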

Additional observations from a re-analysis of the deposited data

Results flagged for a closer look

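In 72 groups of 5 values (36 genes in both groups), 3 had a sample set apart from the others by a gap of more than 0.71 of the range of the group on the log2(FPKM + 0.1) scale. Chance flags about 1 in 20 groups, which would be 3.6 of the 72. Scd2 in CD8+4T1 replicate 5 was the highest, at 110.0 FPKM against 104.5 to 105.0 in the others (gap of 0.912 of the range). Fads2 in CD8+4T1 replicate 2 was the lowest, at 1.44 FPKM against 2.03 to 2.17 (0.837 of the range). Dhcr7 in CD8+4T1+NaAc replicate 5 was the lowest, at 1.86 FPKM against 2.37 to 2.60 (0.718 of the range). Fads2 and Dhcr7 kept their rise, and Scd2 stayed uncalled, when these samples were left out.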

How the results depend on the processing

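The 14 members called (9 higher, 5 lower) became 7 (2 higher, 5 lower) with a mean of at least 5 FPKM, where 22 members were tested. The count was 7 (5 higher, 2 lower) at an adjusted p under 0.01. Of all genes tested, 47.9% and 23.6% were called in these settings, against 36.5% in the fit with 14 members called. Members called lower numbered 3 without a filter, 2 in voom and 1 at the same total FPKM and at equal T cell markers, where 15 and 18 were called higher. Of all genes tested, 17.0% were called without a filter, 38.8% in voom, 40.0% at the same total FPKM and 41.1% at equal T cell markers. With each sample left out, 10 to 17 members were called, 7 to 11 higher and 3 to 6 lower, beside 31.5% to 44.3% of all genes tested. Both highest values, 17 members and 44.3%, came without NaAc replicate 1. The lower count was 3 without CD8+4T1 replicate 1 or 2 or NaAc replicate 3 or 5, losing Insig2 and Sc5d each time. Values called in either fit that changed sign were those of Sc5d, 0.01 at the same total FPKM and 0.06 at equal T cell markers, and of Srebf2, 0.21 at equal T cell markers. Members called in neither fit changed sign 11 times at the same total FPKM, 10 at equal T cell markers and 7 in voom. The median of all genes tested moved from -0.02 to 0.15, 0.2 and 0.07 in these settings, so small negative values could change sign. Why the summed FPKM differed between the groups was not tested. The pseudocounts, median-ratio scaling and limma without trend left all 3 counts as they were, although without trend Abca1 was called lower in place of Insig2. With the replicate block, 13 members were called (9 higher, 4 lower, with Sc5d lost), beside 34.4% of all genes tested. Same-numbered samples deviated together with r of -0.0283 to 0.0694, so numbers were not read as pairs. Without replicate 1 of both groups 15 were called, beside 44.4% of all genes tested. Over all named genes, 813 values kept their side of the threshold, 779 with the same sign and 34, called in neither fit, with the other sign; 47 lost their call, 23 gained one and 3 were those named above. Depth limits the low members most, with 8 to 23 fragments behind Fdps and 43 to 466 behind Scd1.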
